A study of Mus musculus with 2 samples.

Results

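Type B and non-A intercalated cells were examined in scRNAseq libraries of 1 control and 1 ischemic mouse kidney. Members were chosen by measured counts of these same libraries. A barcode counted as a member if Slc26a4, Insrr and Hmx2 together reached at least 5 unique molecular identifiers (UMIs, each standing for 1 captured mRNA molecule) and at least 0.03% of its UMIs. This sum also had to be at or above that of the type A genes Slc4a1 and Aqp6 and above that of the principal cell genes Aqp2, Aqp3 and Scnn1g, and the leukocyte gene Ptprc had to be at 0. The rule found 106 members among 14152 barcodes that carried 2000 to 150000 UMIs and at most 55% mitochondrial UMIs. Of these, 70 came from the control library and 36 from the ischemia library. All kidneys came from male wildtype C57BL/6J mice aged 19 weeks. The control library was made from a contralateral kidney that had not been injured, and the ischemia library from a kidney with 27 min of ischemia and 24 h of reperfusion. The control kidney was thus the opposite kidney of an operated animal. Each library was made from 1 kidney, and whether both came from 1 mouse is not given. The ischemia time is that of the labels, and the study's methods describe a slightly shorter clamping. The deposited libraries held 15110 control barcodes with 142686238 UMIs and 15257 ischemia barcodes with 142959737 UMIs. Because each condition had 1 library, no test between conditions was possible, an effect of ischemia and a difference between libraries cannot be told apart, and all intervals below cover counting error only.

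Intercalated cells are the acid-base cells of the distal nephron and collecting duct. Type A cells secrete acid through an apical proton pump, the V-ATPase, and return bicarbonate to the blood through the basolateral anion exchanger Slc4a1. Type B cells carry the apical chloride/bicarbonate exchanger pendrin, which Slc26a4 encodes, and secrete bicarbonate while taking up chloride. Non-A, non-B cells hold pendrin and the proton pump at the apical side, and the gate used here was not made to separate them from type B cells.

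Gate genes were read first. Slc26a4 lies on chromosome 12 at 31519827 to 31559969 (minus strand, GRCm38). Insrr, which encodes the insulin receptor-related receptor, an alkali sensor, lies on chromosome 3 at 87796951 to 87816101 (plus strand). Hmx2, which encodes a homeobox transcription factor, lies on chromosome 7 at 131548773 to 131558014 (plus strand). The gate genes took a median of 0.274% of a control member's UMIs (lowest 0.0314%, highest 0.976%) and 0.173% of an ischemia member's (lowest 0.0516%, highest 1.54%). Just inside the gate, 1 member of each library had exactly 5 gate UMIs. Just outside it, 3 control and 2 ischemia barcodes met every other condition with a sum of 4. Principal cell genes alone kept 9 control barcodes and 1 ischemia barcode out, Ptprc alone 11 and 10, and type A genes alone 2 and 0. The plot of gate genes in single barcodes shows that most members had no type A UMI, in 56 of 70 control and 31 of 36 ischemia cells, while 7 and 5 members had at least 3.

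**Figure D1:**
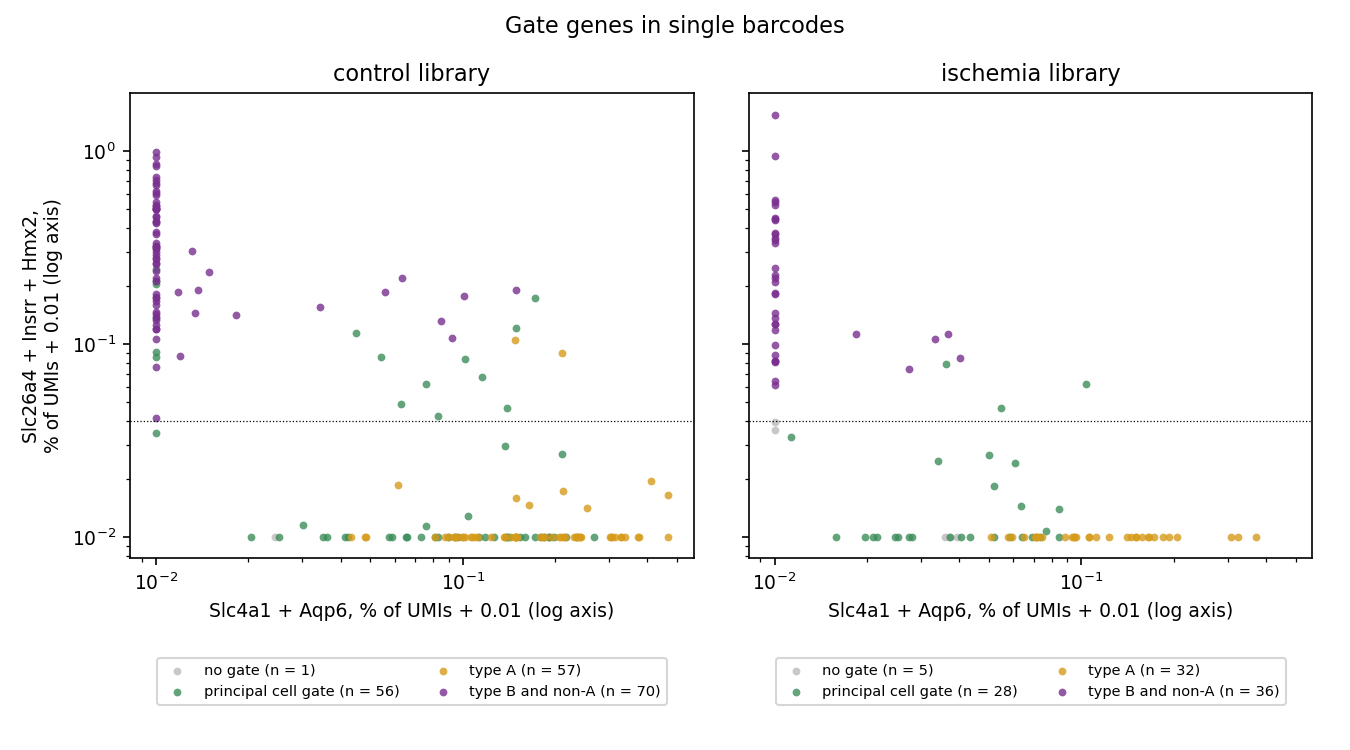
Summed type B gate genes (vertical, percent of UMIs plus 0.01, log axis) against summed type A gate genes (horizontal, same scale) for each barcode without Ptprc that had at least 5 UMIs of either sum, control library left and ischemia library right. The dotted line marks the gate minimum of 0.03% plus 0.01; the 70 control and 36 ischemia members lie above it or on it, and 56 and 31 of them stand at the left edge, where no type A UMI was found.

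Promoter sequences are shown for the pendrin gene, for the proton pump gene Atp6v1b1, a target of the intercalated cell transcription factor Foxi1 (a forkhead protein), and for Spp1, the injury gene with the most UMIs. Each run gives the 200 bases from 250 to 51 before a RefSeq start site (GRCm38.p6), written 5′ to 3′ on the gene's strand. Capitals mark the forkhead letters GTAAACA or TGTTTAC on either strand.

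Slc26a4, chr12:31560035-31560234, minus strand: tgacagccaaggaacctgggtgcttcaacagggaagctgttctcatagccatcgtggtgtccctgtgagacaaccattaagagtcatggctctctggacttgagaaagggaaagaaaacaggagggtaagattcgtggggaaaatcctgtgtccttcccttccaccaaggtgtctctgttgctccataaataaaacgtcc

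Atp6v1b1, chr6:83742767-83742966, plus strand: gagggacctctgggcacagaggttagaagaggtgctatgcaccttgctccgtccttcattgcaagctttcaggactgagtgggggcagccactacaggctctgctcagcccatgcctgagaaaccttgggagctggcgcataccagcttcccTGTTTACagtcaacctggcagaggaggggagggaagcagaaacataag

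Spp1, chr5:104434861-104435060, plus strand: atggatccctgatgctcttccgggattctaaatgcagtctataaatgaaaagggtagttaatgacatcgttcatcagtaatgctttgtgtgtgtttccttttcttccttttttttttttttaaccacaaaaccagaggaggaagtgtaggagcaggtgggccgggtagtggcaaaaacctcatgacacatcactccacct

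In windows of 300 bases, from 250 before to 50 after a start site, the forkhead letters stood in 3.65% of 32851 RefSeq promoters. Among 21 genes of the gate and intercalated cell lists, 13 had a window and 1, Atp6v1b1, held a match, 98 bases before its start site. The AP-1 letters TGAGTCA or TGACTCA stood in 5.20% of all promoters and in 0 of these 13 genes. Neither motif stood in the window of Slc26a4 or in the Spp1 window shown. Spp1 had 2 windows, and only the one shown was read for this gene. A match is a description of letters and not a binding site.

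Members made up 0.936% of the control barcodes within the limits (95% exact interval 0.730 to 1.18) and 0.540% of the ischemia barcodes (0.378 to 0.746). Type A cells, gated in mirror image, made up 0.762% (57 cells) and 0.480% (32 cells). The type B and non-A share of both intercalated types was therefore 55.1% in the control library (46.0 to 63.9) and 52.9% in the ischemia library (40.4 to 65.2), and these intervals overlapped. All these shares rest on fixed limits for the gate genes, whose levels differed between libraries. Members' gate genes had medians of 0.274% and 0.173% of UMIs. Slc4a1 had a UMI in 53 of 57 and 19 of 32 type A cells, and Aqp6 in all of them. How far this moved the shares was not tested. Doublet calling with Scrublet marked 0 members of either library, but it marked only 0.0134% of control and 0.810% of ischemia barcodes, and these calls were not relied on. Without the 8% of barcodes with the highest doublet scores, 59 of 70 control and 24 of 36 ischemia members were left. This was a loss above 8% in both libraries. The libraries shared 88 barcode sequences, of which 0 belonged to members.

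Control members had a median of 17417 UMIs (range 2033 to 60603) and 3616 genes, and ischemia members 26835.5 UMIs (2794 to 74896) and 5228.5 genes. Of the control members, 22 had under 10% mitochondrial UMIs, with a median of 3350.5 UMIs, against 5 ischemia members. One of these 5 lay near the limit at 9.11% and was deep, with 29585 UMIs, and the other 4 had a median of 4463 UMIs. In the plot of depth against mitochondrial share the 22 control and these 4 ischemia cells lie at the lower left. Malat1, a nuclear RNA chosen after its values were seen, stood in them at 162642 CPM (counts per 1000000 UMIs, taken over the summed UMIs of a group of cells) in control and 212810 CPM in ischemia cells, against 32758 and 37933 CPM in the members with 10% or more. Slc4a9, a basolateral transporter of type B cells, was also higher in these shallow cells, at 5148 CPM against 1238 CPM in the control library and at 4510 CPM against 829 CPM after ischemia. The proton pump subunit Atp6v1g3 was lower in them, at 1471 against 5308 CPM in control cells and at 366 CPM, from 6 UMIs, against 4865 CPM in ischemia cells. With the deep cell included the 5 ischemia cells stood at 105666 CPM for Malat1, 2500 CPM for Slc4a9 and 5501 CPM for Atp6v1g3, of which this cell held 247 of 253 UMIs. The cause of this low mitochondrial share was not tested.

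**Figure D2:**
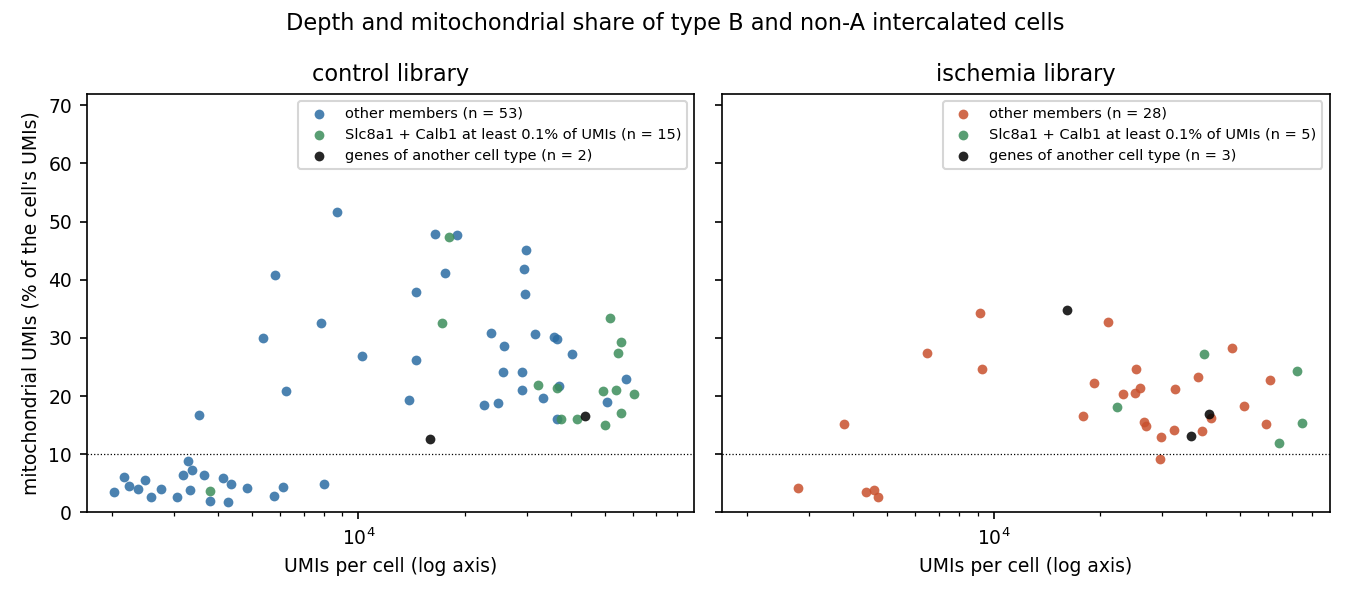
UMIs per cell (horizontal, log axis) against the percent of mitochondrial UMIs (vertical) for the 70 control and 36 ischemia members. Below the dotted line at 10% lie 22 control and 5 ischemia cells, all of low depth but 1 ischemia cell of 29585 UMIs; green cells carry Slc8a1 and Calb1, genes of the connecting tubule, and black cells carry genes of another cell type.

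The label was checked with intercalated cell genes that the gate did not use. Slc4a9 had a UMI in 69 of 70 control and 35 of 36 ischemia members. With each cell thinned to 2000 UMIs these shares were 88.6% (78.7 to 94.9) and 77.8% (60.8 to 89.9), while in cells gated on genes of the thick ascending limb (TAL), which should lack Slc4a9, they were 0.906% and 2.44%. The median depths of these TAL cells were 15882 and 22192 UMIs. Atp6v1g3 had a UMI in 64 and 33 members, and Foxi1, the master transcription factor of intercalated cells, in 42 and 26. In TAL cells Foxi1 had a UMI in 0.776% and 0.750%. Type A cells shared these genes, with a UMI after thinning in 32 of 57 control and 16 of 32 ischemia type A cells for Slc4a9, in 55 and 32 for Atp6v1g3 and in 19 and 12 for Foxi1, so these genes check the intercalated label and not the type B label. A single control member held no UMI of Slc4a9, Foxi1, Atp6v1b1 or Atp6v1g3. Of its 15927 UMIs, 169 were of 6 proximal tubule (PT) genes. Signs of another cell type were found in 5 members, with the 6 PT genes at 0.5% of UMIs or more in 2 control members, the 3 TAL gate genes at 1% or more in 1 ischemia member and at least 10 UMIs of 4 endothelial genes in 2 ischemia members. At the lower limit of the TAL gate itself, 20 UMIs and 0.3%, 4 ischemia members and 0 control members carried TAL genes. Values that moved most without these cells are given below.

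Members differed from type A cells in many genes outside the gates. The cells compared also differed in quality. Under 10% mitochondrial UMIs lay 22 control members against 0 control type A cells, and 5 ischemia members against 2. Ratios to type A cells without these cells are not given here. Of 8126 genes with at least 50 UMIs over both types, 139 (1.71%) were at least 2-fold higher in type B and non-A cells in both libraries, and 149 (1.83%) were at least 2-fold lower in both. The leading gene was Lsamp, which encodes a neural cell adhesion protein. It stood at 1129 CPM in control against 990 CPM in ischemia members, with UMIs in 65 of 70 and 33 of 36 cells, against 7 and 2 UMIs in all type A cells. The ratio to type A was 204 in the control library (95% counting interval 98.8 to 508) and 385 in the ischemia library (106 to 3180). Nbea, a gene of vesicle trafficking, was 18.5-fold higher in the control library (13.7 to 25.8) and 17.4-fold higher in the ischemia library than in type A cells, and Tmem163, a zinc transporter gene, 12.5-fold (7.78 to 21.5) and 10.5-fold (5.70 to 21.4). Igfbp5, which encodes a binding protein of insulin-like growth factors, stood at 441 CPM in control against 95.9 CPM in ischemia members, 9.96-fold and 18.6-fold above type A cells. The other genes among the top 12 were Thsd7a, Gm47795, Aldh1l2, Gm47790, Agpat4, Ripor2, Chl1 and Ank. Gm47790 and Gm47795 are predicted genes, and whether they share reads with neighbouring genes was not tested.

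On the type A side, the leading genes included Muc20, Pgm5, Negr1, 2610016A17Rik, Scx, Tenm3, Dscaml1, Dmrt2, Cryab, Mme and Eya2. Muc20, a mucin gene, was 16.9-fold and 15.5-fold higher in type A cells, and Mme, which encodes the peptidase neprilysin, 6.94-fold and 7.07-fold. Negr1, an adhesion gene of the same family as Lsamp, had 0 UMIs in all members of both libraries against 62 and 24 UMIs in type A cells, which in the ischemia library is at least 11.2-fold higher in type A cells with 3 UMIs set as the limit for a sum of 0. Dmrt2, a transcription factor gene known in type A cells, was 7.18-fold and 12.5-fold higher there. The plot of genes leading on either side shows their levels; their separation in both libraries was fixed by how they were chosen.

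**Figure D3:**
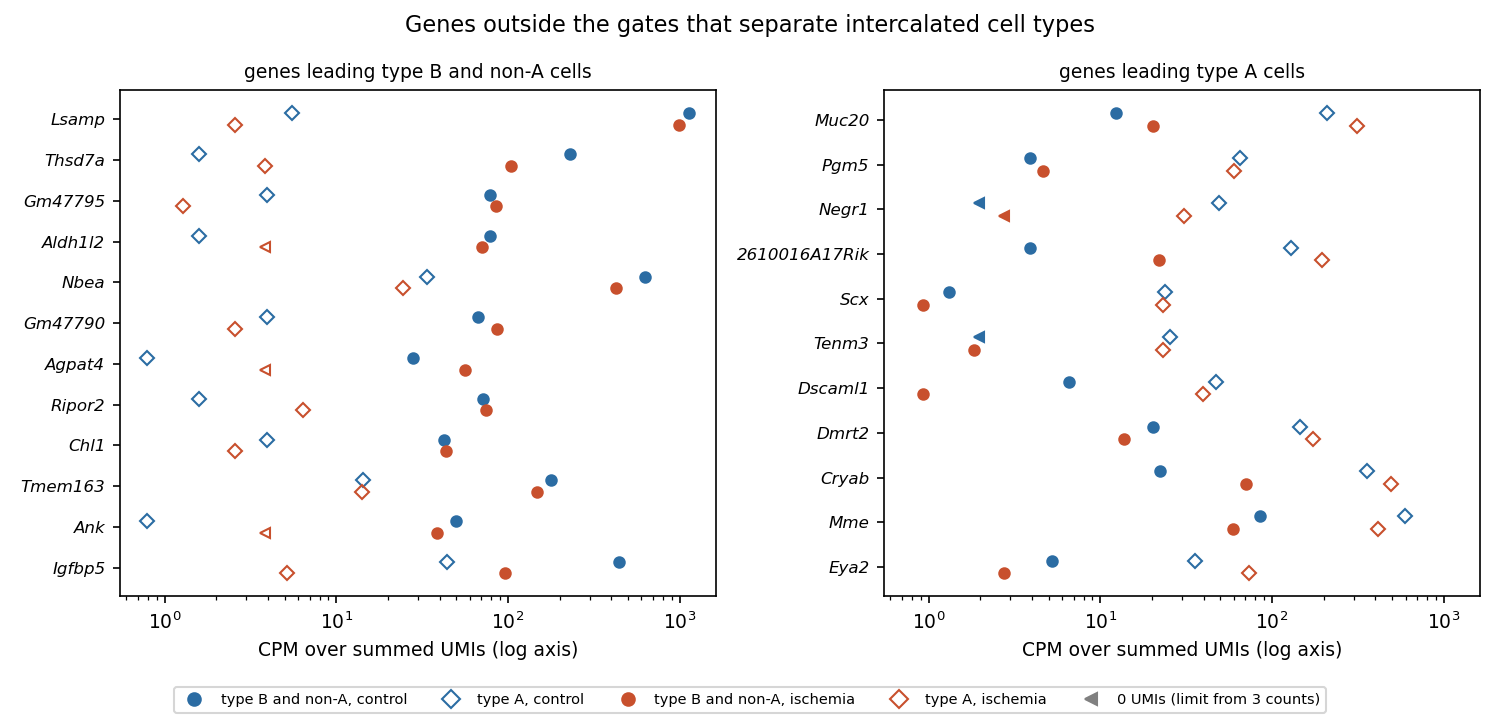
CPM over summed UMIs (log axis) of the 12 genes leading in type B and non-A cells (left) and 11 of those leading in type A cells (right). Filled circles are type B and non-A cells, open diamonds type A cells, blue the control and red the ischemia library, and triangles mark sums of 0 at the limit set by 3 UMIs; for Lsamp the filled circles lie at 1129 and 990 CPM and the open diamonds at 5.54 and 2.58 CPM.

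A further group of members carried genes of the connecting tubule, the segment where non-A, non-B cells are known to be most frequent. Slc8a1, the sodium/calcium exchanger, and Calb1, the calcium binding protein calbindin, together reached 0.1% of UMIs in 15 control and 5 ischemia members. These cells were deep, with medians of 49411 and 64594 UMIs, against 10224 and 25909 in the remaining members. Klk1, the kallikrein gene of the connecting tubule, stood at 15019 CPM in them in control and 30378 CPM in ischemia cells, against 1992 and 4292 CPM in the others. Rhcg, an ammonia channel, was also higher in them, at 387 and 311 CPM against 200 and 78.9 CPM. Cells gated on principal cell genes stood at 394 and 170 CPM for Rhcg. The principal cell gate genes reached 78 UMIs in 1 of these control cells and 69 in 1 of these ischemia cells, beside 660 and 235 in all members. Of the 260 control UMIs of the type A gate genes, 186 lay in these 15 cells. Whether they were single cells or droplets with RNA of a neighbouring cell was not tested.

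Ischemia and control members were then compared over summed UMIs. Of 6061 genes with at least 50 UMIs over all members, 255 (4.21%) were at least 2-fold higher and 255 (4.21%) at least 2-fold lower in the ischemia library, with a median ratio of 1.01. A ratio above 1 was found for 3108 of these genes and a ratio below 1 for 2953. These shares and counts are the background for each list below. When CPM were taken over UMIs that are not mitochondrial, 208 genes were higher and 321 lower. When CPM were averaged over cells in place of summed UMIs, 393 were higher and 416 lower.

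The gate genes, which chose the members, are given as a description only. Slc26a4 stood at 1881 CPM in control against 1551 CPM in ischemia members, a ratio of 0.825 (0.770 to 1.06 over the alternatives). In single cells it ran from 243 CPM over a median of 1814 CPM to 8510 CPM in the control library and from 0 over 1166 to 15142 CPM in the ischemia library. Insrr stood at 215 and 82.1 CPM and Hmx2 at 347 and 190 CPM. The same genes were read in a gate that used Slc4a9 in place of the gate genes, with 80 control and 59 ischemia cells. In these cells Slc26a4 stood at 1833 and 1045 CPM, a ratio of 0.570 (0.535 to 0.608), Insrr at 222 and 53.0 CPM, a ratio of 0.239 (0.184 to 0.307), and Hmx2 at 336 and 121 CPM, a ratio of 0.359 (0.301 to 0.428). Of the Slc4a9-gated cells, 57 of 80 (71.3%, 60.0 to 80.8) were members in the control and 30 of 59 (50.8%, 37.5 to 64.1) in the ischemia library. No UMI of the gate genes was found in 18 and 19 of the others. TAL genes reached 1% of UMIs in 0 control and 3 ischemia cells of these others. Over all Slc4a9-gated cells the TAL gene Umod stood at 459 and 2157 CPM and the injury gene Lcn2 at 11.3 and 1410 CPM. The part of other cell types in the ratios of this gate was not tested.

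Of 6 other type B genes, 3 were measured, and 1 of them, Oxgr1, was at least 2-fold lower in ischemia members, beside the background of 4.21%. Slc4a9, the basolateral anion exchanger AE4, stood at 1447 CPM in control against 900 CPM in ischemia members, a ratio of 0.622 (0.576 to 0.671), which was past 2-fold in 1 alternative, at 0.494 with each cell thinned to 2000 UMIs. In single control members it ran from 0 over a median of 1547 to 11973 CPM, and in ischemia members from 0 over 776 to 6680 CPM. The ranges overlapped, with 26 of 36 ischemia members under the control median. In type A cells the ratio of Slc4a9 was 1.12 (543 and 608 CPM). Oxgr1, the receptor for alpha-ketoglutarate that is known to act on pendrin-expressing cells, stood at 229 and 95.9 CPM, a ratio of 0.418 (0.332 to 0.522). In type A cells it stood higher in both libraries, at 268 and 157 CPM, a ratio of 0.586. In members it had no UMI in 24 of 70 control and 12 of 36 ischemia members. Sctr, the secretin receptor, had 47 and 19 UMIs, a ratio of 0.570 (0.316 to 0.990), which was 0.303 with a stricter gate of at least 10 gate UMIs and 0.1%. Sctr had a UMI in 26 of 70 control and 10 of 36 ischemia members, and in 21 of 57 and 11 of 32 type A cells. Hmx3, a homeobox gene beside Hmx2, had 10 and 0 UMIs. Slc4a8, a sodium-driven exchanger, and Cftr, the chloride channel, had too few UMIs for a ratio to be read, with 19 and 13 and with 2 and 5.

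Of 12 genes shared by intercalated cells, 3 were at least 2-fold lower in ischemia members and 0 were at least 2-fold higher. A ratio below 1 was found for 11, beside 2953 of all 6061 genes. The list median was 0.682 beside the median of 1.01 over all genes. The 3 lower genes were Rhcg (275 and 137 CPM, ratio 0.499, interval 0.411 to 0.603), Rhbg, the basolateral ammonia transporter (222 and 97.7 CPM, ratio 0.441, 0.351 to 0.550), and Bsnd, the barttin subunit of chloride channels (66.0 and 29.5 CPM, ratio 0.447, 0.290 to 0.671). Rhcg lay at the 2-fold limit, and its ratio ran from 0.395 to 0.645 over the alternatives. Rhbg reached 0.548 with at most 25% mitochondrial UMIs, and Bsnd 0.525 without members that held type A UMIs. Type A cells showed ratios of 0.510 for Rhcg and 0.428 for Rhbg. Car2, carbonic anhydrase 2, which supplies protons and bicarbonate, had a ratio of 0.618. Tfcp2l1, a transcription factor of intercalated and principal cells, had a ratio of 0.896.

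Foxi1, which lies on chromosome 11 at 34204338 to 34208089 (minus strand), was the exception in this list. It stood at 138 CPM in control against 211 CPM in ischemia members, a ratio of 1.53 (1.26 to 1.85). Its highest level in a single cell was 792 CPM in control and 781 CPM in ischemia cells, and the cells of the libraries overlapped. In type A cells the ratio was 1.36. Thinned to 2000 UMIs, 21.4% (12.5 to 32.9) of control and 27.8% (14.2 to 45.2) of ischemia members had a Foxi1 UMI, and these intervals overlapped. Its ratio was 1.12 with the stricter gate, and 2.07 with a limit of 25% mitochondrial UMIs.

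V-ATPase subunits were mostly lower by less than 2-fold. Of 22 genes, 21 were measured with at least 50 UMIs, and 0 were past 2-fold in either direction. A ratio below 1 was found for 19, with a median of 0.697, beside 2953 of all 6061 genes. Over the alternatives in which all 21 were measured the number below 1 ran from 16 to 19. Atp6v1b1, Atp6v1g3, Atp6v1c2, Atp6v0d2 and Atp6v0a4 are also in the list of genes shared by intercalated cells, so the lists are not separate results. Atp6v1c2, an intercalated cell subunit, stood at 668 and 346 CPM, a ratio of 0.518 (0.459 to 0.584), and of 0.484 to 0.667 over the alternatives. Atp6v0c, the proteolipid of the membrane ring, stood at 1810 and 1012 CPM, a ratio of 0.559 (0.521 to 0.599), and Atp6v1a, the catalytic subunit, at 1278 and 757 CPM, a ratio of 0.592 (0.545 to 0.643). Atp6v1b1, on chromosome 6 at 83742990 to 83758855 (plus strand), stood at 267 and 185 CPM, a ratio of 0.695 (0.584 to 0.825). Atp6v1g3, a subunit particular to intercalated cells in the kidney, was nearly level at 5103 and 4892 CPM, a ratio of 0.959 (0.926 to 0.993). In single cells Atp6v1g3 had a median of 3902 CPM in control and 4438 CPM in ischemia cells, the reverse of the order over summed UMIs. The plot of single cells shows the wide overlap of the libraries for these genes.

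**Figure D4:**
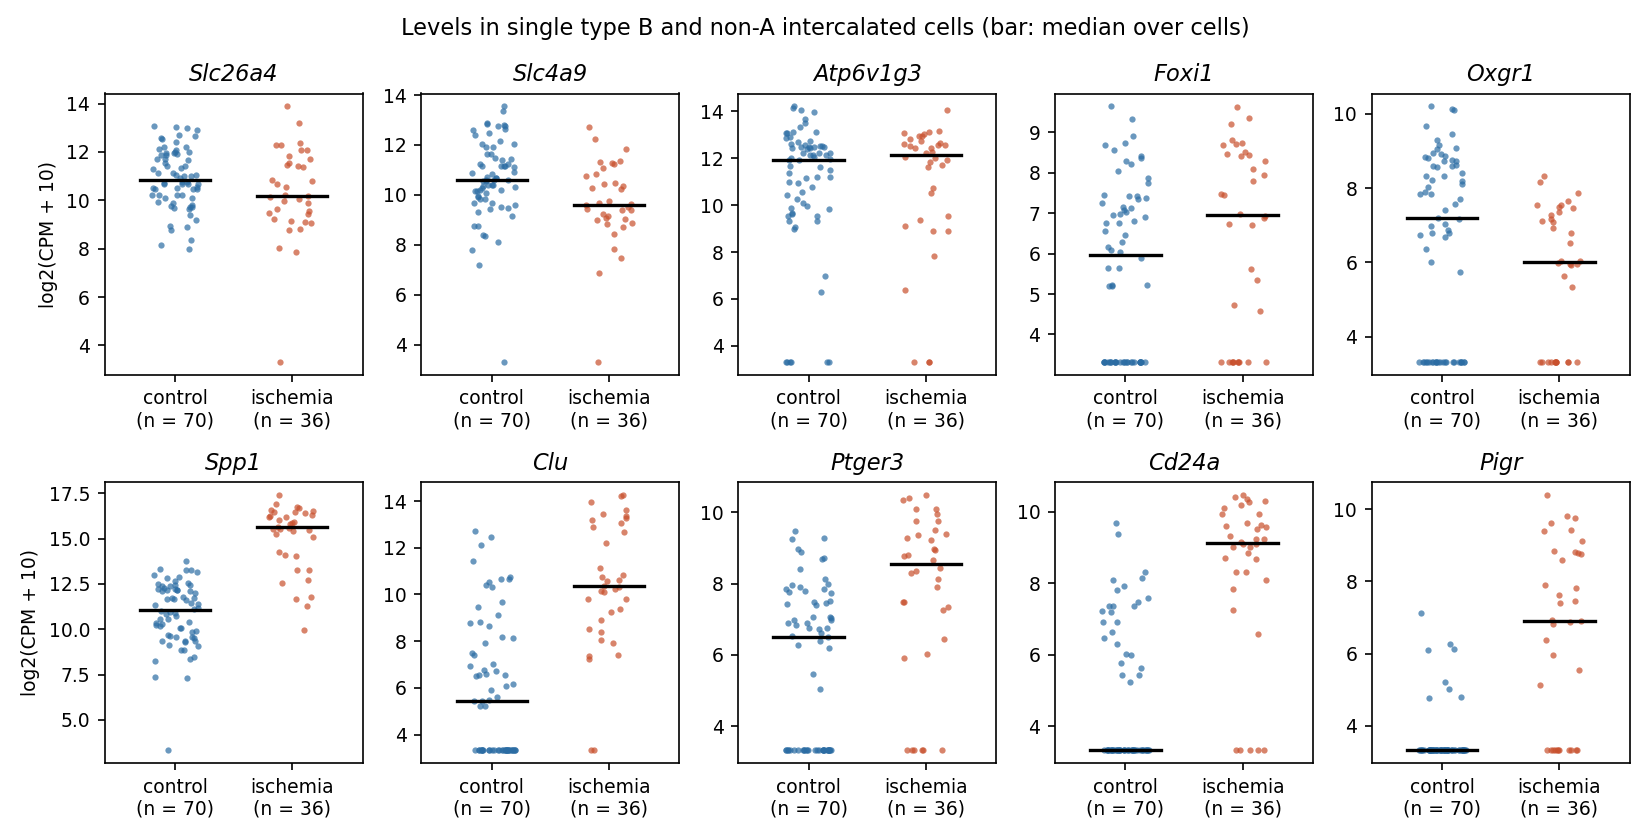
Level of 10 genes in each of the 70 control (blue) and 36 ischemia (red) members, as log2 of CPM plus 10, with black bars at the median over cells. The libraries overlap for Slc26a4, Slc4a9, Atp6v1g3, Foxi1 and Oxgr1, while for Spp1 28 of 36 ischemia cells lie above the highest control cell; cells are not replicates.

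Of 18 genes of tubular injury, 9 were measured in members, 6 were at least 2-fold higher and 0 at least 2-fold lower, with a median ratio of 4.66. Without the barcodes of highest doublet scores, which left 59 control and 24 ischemia members, 5 were measured and 2 were higher, with a median of 1.83. Spp1, on chromosome 5 at 104435118 to 104441050 (plus strand), encodes osteopontin, a secreted phosphoprotein. It stood at 4245 CPM in control against 61930 CPM in ischemia members, a ratio of 14.6 (14.2 to 15.0). Control cells ran from 0 over a median of 2137 to 13923 CPM and ischemia cells from 989 over 50053 to 174294 CPM. All 70 control cells lay below the ischemia median, and 28 of 36 ischemia cells lay above the highest control cell. The ratio was 10.8 in type A cells (4432 and 47869 CPM), 8.68 in principal cells, 7.15 in TAL cells and 7.73 over all barcodes within the limits (3292 and 25453 CPM). Free Spp1 RNA in the droplets was not measured, and its part in these levels was not tested. Under the alternatives the ratio in members was at most 17.3.

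Clu, which encodes the secreted chaperone clusterin, stood at 1005 and 5997 CPM, a ratio of 5.97 (5.64 to 6.31). It had no UMI in 32 of 70 control and 2 of 36 ischemia members. Without the cells rich in Slc8a1 and Calb1, the ratio was 18.6, and 1346 of the 1537 control UMIs lay in those 15 cells. Without the 8% of barcodes with the highest doublet scores it was 3.94. Cdkn1a, the cell cycle inhibitor p21, had 16 and 68 UMIs, a ratio of 5.99 (3.44 to 11.1), which was 2.77 without the highest doublet scores. Tnfrsf12a, the TWEAK receptor, had a ratio of 2.66 (1.75 to 4.11), which was 1.77 without them and 1.91 without members that held type A UMIs. Anxa2, annexin A2, had 13 and 43 UMIs, a ratio of 4.66 (2.46 to 9.46), which was 2.74 without the members that showed another cell type.

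Lcn2, which encodes the injury marker NGAL, had 15 UMIs in control and 581 UMIs in ischemia members, a ratio of 54.6 (32.8 to 98.2). Its UMIs were concentrated in few cells, with 256, 165 and 104 UMIs in the top 3 ischemia members and none in 18 of 36. The cell with 256 was the member that also held 608 UMIs of TAL genes. The cell with 104 had only 5 gate UMIs, 1 of Slc4a9 and 0 of Foxi1 and Atp6v1g3, and met the limits of the TAL gate. Lcn2 stood at 536 CPM in all ischemia members, at 326 CPM without the 3 that showed another cell type, and at 225 CPM without the 4 that met the TAL gate limits, where the ratio was 22.9. Its ratio was 1.99 without the barcodes of highest doublet scores and 2.99 with the stricter gate. Thinned to 2000 UMIs, 19.4% (8.19 to 36.0) of ischemia members had a Lcn2 UMI, against 91.9% (89.3 to 94.1) of TAL cells in the same library, so the share in members was not above that of a neighbouring cell type.

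Havcr1 and Timp1 were sparse in members. Havcr1, which encodes the PT injury marker KIM-1, had 0 control and 14 ischemia UMIs, at least 6.58-fold higher with the limit of 3 UMIs, and Timp1, a protease inhibitor gene, 0 and 26, at least 12.2-fold higher. Both fell short of the 50 UMIs set for a count, and they and Krt8 were chosen after their values were seen. The keratin genes Krt8 (121 and 209 CPM, ratio 1.73) and Krt18 (222 and 260 CPM, ratio 1.17, 0.998 to 1.38) were not past 2-fold. S100a6 had a ratio of 1.52, but 98.4% of its control UMIs lay in 1 cell, and over the alternatives it ran from 0.704 to 2.10.

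The genes with the largest ratios were chosen by rank and form no list. Ranked genes had a UMI in at least 25% of ischemia members and no cell with most of the ischemia UMIs. Pigr, which encodes the receptor that carries polymeric immunoglobulin across epithelia, had 19 control and 339 ischemia UMIs, a ratio of 25.2 (15.9 to 42.3). It was detected in 8 of 70 control and 25 of 36 ischemia members, and 17 ischemia members lay above the highest control cell. Of the 19 control UMIs, 17 lay in members with UMIs of the type A gate genes, and without such members the ratio was 111. Type A cells stood higher at 104 and 809 CPM, a ratio of 7.80. Plac8 had 19 and 270 UMIs, a ratio of 20.0 (12.6 to 33.8), and 21.5 in type A cells, and it was 51.9 with at most 25% mitochondrial UMIs. Cxcl17, a mucosal chemokine gene, had 5 and 70 UMIs, a ratio of 19.7 (8.07 to 62.7), and of 12.3 to 32.0 over the alternatives. Muc4, a membrane mucin gene, had 0 and 53 UMIs, at least 24.9-fold higher. Samd5 had 0 and 57 UMIs, at least 26.8-fold higher. Trpv6, the epithelial calcium channel gene, had 1 and 50 UMIs, a ratio of 70.5 with an interval of 12.1 to 2840, and was found in 13 of 36 ischemia members. In type A cells Trpv6 had 0 control UMIs and stood at 41.2 CPM in the ischemia library. The top 12 also included Rrad (ratio 19.3), 9530034E10Rik (10.3) and Tmem158 (7.52), beside Lcn2 and Spp1. Over the alternatives Rrad ran from 12.7 to 37.7, 9530034E10Rik from 6.82 to 45.6 and Tmem158 from 4.21 to 13.5. Cd24a, which encodes an epithelial surface protein and was chosen after its values were seen, stood at 93.5 and 698 CPM, a ratio of 7.47 (6.24 to 8.99), with UMIs in 26 of 70 and 31 of 36 members. Of the antimicrobial list, 2 of 6 genes were measured. Defb1, a beta-defensin gene, stood at 870 and 2174 CPM, a ratio of 2.50 (2.34 to 2.67), and Wfdc2 at 528 and 962 CPM, a ratio of 1.82. Without the cells rich in Slc8a1 and Calb1 the ratios were 7.80 for Defb1 and 3.09 for Wfdc2. With the stricter gate they were 1.97 and 1.34, so that 0 genes of this list were past 2-fold.

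**Figure D5:**
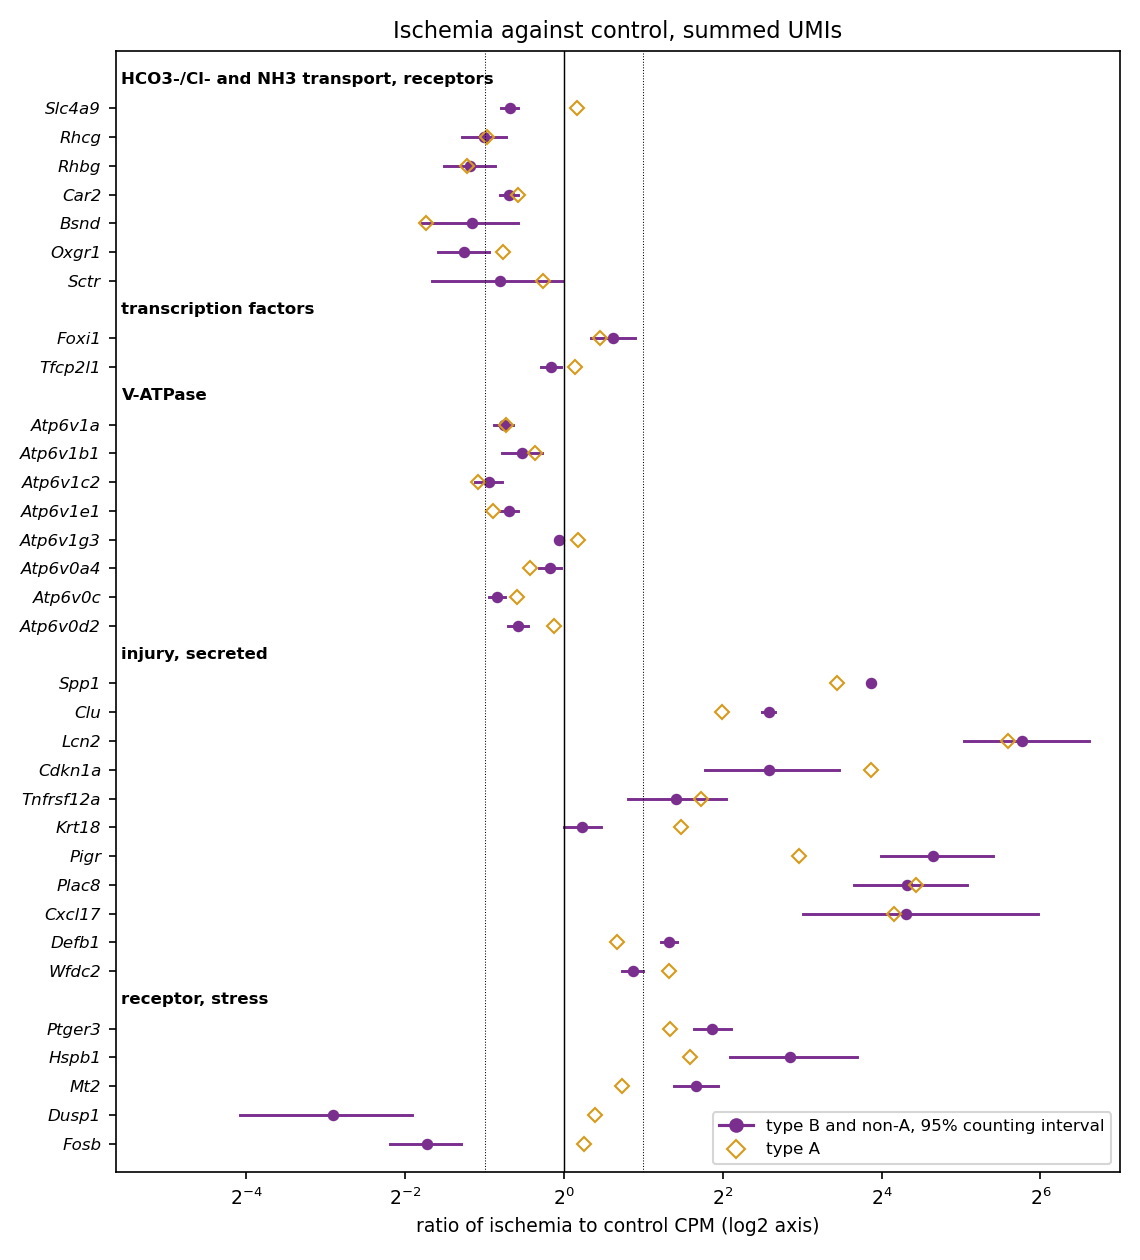
Ratio of ischemia to control CPM over summed UMIs (log2 axis) for genes of the lists, with purple points and lines for type B and non-A cells and their 95% counting intervals and open diamonds for type A cells. Dotted lines mark 2-fold; Spp1, Lcn2, Pigr and Plac8 lie far to the right in both cell types, and most transport and V-ATPase genes lie between 0.5 and 1.

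Receptors and hormone control genes did not share a direction. Ptger3, the prostaglandin E2 receptor EP3, stood at 134 CPM in control against 490 CPM in ischemia members, a ratio of 3.65 (3.10 to 4.31). Single control cells ran from 0 over a median of 81.4 to 703 CPM and ischemia cells from 0 over 366 to 1429 CPM, with 27 of 36 ischemia cells above the control median. Thinned to 2000 UMIs, 18.6% (10.3 to 29.7) of control and 52.8% (35.5 to 69.6) of ischemia members had a Ptger3 UMI. The ratio was 2.52 in type A cells and 0.292 in TAL cells, where the thinned share was 48.5% in control and 22.1% in ischemia cells. The ratio in members was at least 3.36 under each alternative. Sgk1, the kinase that mineralocorticoids induce, had 36 and 58 UMIs, a ratio of 2.27 (1.47 to 3.55), which was 1.97 with at most 25% mitochondrial UMIs and 4.19 without the highest doublet scores. Nr3c2, the mineralocorticoid receptor, had a ratio of 0.789 and Igf1r, a receptor of insulin-like growth factors, of 0.622. The ratio of Nr3c2 was 1.15 without members that held type A UMIs, and that of Igf1r was 0.939 when CPM were averaged over cells. Of the 8 genes in this list, 7 were measured, 2 were at least 2-fold higher and 0 lower.

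Sodium pump genes were not past 2-fold. Atp1b1, the beta subunit, stood at 2428 and 3010 CPM, a ratio of 1.24 (1.18 to 1.30). In type A cells this ratio was 0.846 and in TAL cells 0.454. Fxyd2, the gamma subunit, had a ratio of 0.712 in members and 0.338 in type A cells.

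Genes of energy metabolism were read in 3 lists. Of 15 nuclear genes of mitochondrial respiration, all 15 had a ratio below 1, beside 2953 of all 6061 genes. Past 2-fold were 0, and the median was 0.665. The number below 1 was also 15 in each alternative that measured all 15. With at most 25% mitochondrial UMIs 2 were at least 2-fold lower. In 3 alternatives 1 was: CPM over UMIs that are not mitochondrial, CPM averaged over cells, and thinning to 2000 UMIs. Atp5b, the beta subunit of ATP synthase, stood at 1646 and 1009 CPM, a ratio of 0.613 (0.570 to 0.658). Cox4i1 had a ratio of 0.760, Cox8a of 0.804 and Cox6c of 0.907, each a subunit of cytochrome c oxidase. Of the 13 genes encoded by mitochondrial DNA, all 13 had a ratio below 1, beside 2953 of all 6061 genes, with a median of 0.766. Mitochondrial UMIs were 24.3% of summed UMIs in control and 19.0% in ischemia members. The rule limited this share to 55% per cell, so the common direction restates 1 difference. Barcodes over that limit that met the other conditions numbered 8 in control and 3 in ischemia. Past 2-fold was 1 gene, mt-Atp8 (1931 and 962 CPM, ratio 0.498, 0.464 to 0.535). The ratio of mt-Atp8 ran from 0.465 to 0.672 over the alternatives, and in 8 of them it was not past 2-fold. With at most 25% mitochondrial UMIs the median of the 13 genes was 0.934 and 10 of them were below 1. The ratio of mt-Atp6 was 0.737 in members and 0.744 in type A cells. Of 13 glycolysis and hypoxia genes, 12 were measured, 6 had a ratio above 1, and 1 was at least 2-fold higher, with a median of 1.07. This was Pfkfb3, an activator of glycolysis, with 37 and 95 UMIs, a ratio of 3.62 (2.45 to 5.45), and of 4.65 in type A cells. Without members that held type A UMIs it was 6.55. The genes Ldhb (0.979), Gapdh (0.818), Pkm (1.16) and Pgk1 (0.788) were near level.

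Early response genes did not share a direction either. Of 16 genes, 14 were measured, 1 was at least 2-fold higher and 3 were at least 2-fold lower, with a median ratio of 1.17. Dusp1, a phosphatase of MAP kinases, had 95 and 9 UMIs, a ratio of 0.134 (0.0593 to 0.265), Fosb 248 and 53 UMIs, a ratio of 0.301 (0.220 to 0.407), and Nr4a1, a nuclear receptor gene, 84 and 24 UMIs, a ratio of 0.403 (0.245 to 0.641). Over the alternatives Dusp1 ran from 0.0576 to 0.155, Fosb from 0.204 to 0.453 and Nr4a1 from 0.295 to 0.548. In type A cells these ratios were 1.31, 1.19 and 0.925, and in TAL cells 1.59, 1.52 and 1.36. Zfp36, which encodes an mRNA decay factor, stood at 127 and 263 CPM, a ratio of 2.06 (1.71 to 2.49), which was 1.71 at the lowest of the alternatives. Those with the most UMIs were near level, with ratios of 1.14 for Jun, 0.830 for Fos, 1.18 for Junb and 1.19 for Btg2. Each of these 4 lay on both sides of 1 over the alternatives, and Fos ran from 0.650 to 1.34.

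Of 11 heat shock and unfolded protein genes, 10 were measured and 1 was at least 2-fold higher. Hspb1, a small heat shock protein gene, had 17 and 87 UMIs, a ratio of 7.22. It was 3.75 without the members that showed another cell type, and 1 cell held 40.2% of its ischemia UMIs. Of 10 metal and oxidant genes, 7 were measured and 1, the metallothionein gene Mt2, was at least 2-fold higher (105 and 331 CPM, ratio 3.16, 2.62 to 3.84). The ratio of Mt2 was 1.39 with the stricter gate and 1.53 without the 4 members that met the TAL gate limits. Mt1 had a ratio of 1.63, which was 0.960 and 0.910 with these steps. The ferritin genes Fth1 and Ftl1 had ratios of 1.17 and 0.843, and that of Fth1 was 0.903 without the highest doublet scores.

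Inflammatory genes were sparse. Of 16, 2 were measured, Nfkbia, an inhibitor of NF-kappaB (ratio 0.543), and Nfkbiz (ratio 1.43), and 47.1% of the control UMIs of Nfkbia lay in 1 cell. The ratio of Nfkbia ran from 0.346 to 0.655 over the alternatives and was past 2-fold in 7 of them. Il34, a cytokine that binds the receptor Csf1r, had 2 control and 21 ischemia UMIs in 7 cells, and was chosen after its values were seen. Of 10 interferon and MHC class I genes, 4 were measured, and their ratios ran from 1.45 to 1.93 with 0 past 2-fold. Without members under 10% mitochondrial UMIs 1 of them was at least 2-fold higher, as was 1 when CPM were averaged over cells. The ratio of Irf1 ran from 1.22 with at most 25% mitochondrial UMIs to 2.90 with CPM averaged over cells. H2-K1, a class I heavy chain gene, stood at 167 and 243 CPM, a ratio of 1.45 (1.22 to 1.73), against 2.81 in type A cells.

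Genes of other cell types were read in the same sums. Of 6 type A genes outside the gate, 4 were measured. Kit, a receptor kinase gene, stood at 104 and 31.4 CPM, a ratio of 0.302 (0.202 to 0.439), and P2ry14, the UDP-glucose receptor gene, had 15 and 52 UMIs, a ratio of 4.89 (2.71 to 9.35), which was 11.1 without the highest doublet scores. P2ry14 was lower in members than in type A cells of both libraries, which stood at 84.6 and 207 CPM. Adgrf5, an adhesion receptor gene, had a ratio of 0.948, which ran from 0.709 without the highest doublet scores to 2.36 without members that held type A UMIs, and Avpr1a, a vasopressin receptor gene, of 1.18. Slc26a7, an anion exchanger of type A cells, had 0 UMIs in all members.

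Of 9 principal cell genes outside the gate, 6 were measured. Fxyd4 was at least 2-fold lower (116 and 54.4 CPM, ratio 0.467), but 62.7% of its ischemia UMIs lay in 1 cell. Its ratio ran from 0.0710 without members that held type A UMIs to 1.12 without the members rich in Slc8a1 and Calb1. Hsd11b2, the enzyme that protects the mineralocorticoid receptor from corticosterone, had a ratio of 0.675, which was 0.466 with the stricter gate and 1.33 without members that held type A UMIs. Scnn1a, a sodium channel subunit, had a ratio of 0.652. Of 6 genes of the distal and connecting tubule, 4 were measured. Slc8a1 had a ratio of 0.280 and Calb1 of 0.372, with 48.1% and 81.7% of their ischemia UMIs in 1 cell each. Without the members rich in these genes the ratios of Slc8a1 and Calb1 were 0.852 and 0.674. Klk1 stood at 7256 and 10873 CPM over summed UMIs, a ratio that ran from 1.10 to 3.13 over the alternatives, while its medians in single cells had the reverse order, at 273 and 181 CPM.

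Umod, which encodes uromodulin of the TAL, had 649 control and 1879 ischemia UMIs, a ratio of 4.08 (3.73 to 4.47), and was found in 59 of 70 and 31 of 36 members. Its ratio was 1.38 in type A cells, 1.11 in principal cells and 0.760 in TAL cells, and the defining TAL transporter gene Slc12a1 had 13 and 11 UMIs in members. A single ischemia member held 31.8% of the Umod UMIs and 90.9% of the Slc12a1 UMIs. The 3 TAL genes together stood at 433 CPM in control against 1745 CPM in ischemia members, and at 449 and 1277 CPM without the members that showed another cell type. Cldn16, the third of them, had 0 and 2 UMIs. Over the alternatives the ratio of Umod ran from 2.47, without the 4 members that met the TAL gate limits, to 4.30. The part of free TAL RNA in these values was not tested.

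PT genes were lower in ischemia members. Of 8 genes, all were measured and 6 were at least 2-fold lower, with a median ratio of 0.204. With the stricter gate 4 of the 8 were at least 2-fold lower, with a median of 0.451. After thinning to 2000 UMIs 3 were measured and 1 was at least 2-fold lower, with a median of 0.874. Slc5a12, a lactate transporter gene, had 217 and 6 UMIs, a ratio of 0.0390 (0.0142 to 0.0863), with 60.4% of the control UMIs in 1 cell. Lrp2, the endocytic receptor megalin, had a ratio of 0.111, Miox of 0.107, Slc34a1, the phosphate transporter, of 0.193 and Slc22a6 of 0.432, which ran from 0.190 to 0.616 over the alternatives. Gpx3, a secreted peroxidase gene, had a ratio of 0.971, and of 1.35 with the stricter gate. Kap had a UMI in all 70 control and all 36 ischemia members, at 544 and 361 CPM. Without the members that showed another cell type, the median of the 8 ratios was 0.413, with ratios of 0.106 for Slc5a12, 0.212 for Lrp2, 0.208 for Miox, 0.363 for Slc34a1 and 0.483 for Slc22a6. Over all barcodes within the limits the 5 genes named as lower had ratios of 0.429 to 0.497. Genes were ranked only with a UMI in at least 25% of control members and no cell with most of the control UMIs, which left Slc5a12 out. The 12 genes with the lowest ratios by this rule were Cubn, Ugt3a2, Miox, Pck1, Lrp2, Dcn, Dusp1, Akr1c21, Acsm2, Gatm, Cyp4b1 and Acnat1. Most of them, such as Cubn, which encodes the megalin partner cubilin (50 and 3 UMIs), and Pck1, the gluconeogenic enzyme (118 and 9 UMIs), are known from the PT. Without the members that showed another cell type the ratio of Cubn was 0.171 in place of 0.0846 and that of Pck1 0.395 in place of 0.108. The same step gave 0.314 in place of 0.140 for Gatm and 0.284 in place of 0.136 for Acsm2, and that of Ugt3a2, with 55 and 4 UMIs, was 0.212 in place of 0.103. With the stricter gate the ratios were 0.147 for Slc5a12, 0.289 for Lrp2, 0.399 for Slc34a1, 0.376 for Gatm, 0.407 for Acsm2 and 0.355 for Ugt3a2. Dcn, which encodes the matrix proteoglycan decorin, had 84 and 7 UMIs in members against 0 in type A cells of both libraries, and the stromal genes Pdgfrb, Col1a1 and Acta2 had 1 and 1 UMIs together. The part of free PT RNA was not tested.

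Leukocyte genes were close to 0. The 5 myeloid genes had 7 and 14 UMIs together, most of them Cd74, with C1qa at 0 in both libraries. The neutrophil genes S100a8 and S100a9 had 2 and 7 UMIs, and the 3 lymphocyte genes Cd3e, Cd79a and Nkg7 had 1 and 0. The 4 endothelial genes Plvap, Pecam1, Emcn and Kdr had 10 control and 92 ischemia UMIs, of which 87 lay in the 2 ischemia members named above.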

How the data were processed

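The libraries were made by the authors with 10x Genomics 3′ chemistry, and per the submitters' processing notes with Cell Ranger 7.0.0 on mm10. The deposited values are raw UMI counts per gene and barcode, for 32285 genes, made by the authors without normalization. Whether intronic reads were counted is not given in the sources used here. Members and gene lists were chosen with earlier results of these data known. From the counts, CPM over summed UMIs, exact 95% Poisson intervals, conditional binomial intervals of ratios and Clopper-Pearson intervals of shares were computed (Python 3.11.15, numpy 2.4.6, scipy 1.17.1, pandas 2.3.3, matplotlib 3.10.9). Scrublet was run through scanpy 1.11.5. Type A cells were gated like members with the gene sums exchanged, and TAL cells by at least 20 UMIs and 0.3% of Slc12a1, Umod and Cldn16. Cells gated on Slc4a9 had at least 3 UMIs and 0.03% of it. With 1 library per condition no test was made, and genes were compared from 50 UMIs upward with 2-fold as the limit. Named genes were the gate and type B lists, the intercalated cell list, the 4 genes with most UMIs and those past 2-fold in every list, the 12 leading genes of each direction between libraries (a UMI in at least 25% of the members of the higher library, no cell with most of the UMIs there) and the 12 leading genes of each side against type A cells, by the smaller of both libraries' ratios. The symbols Ddit3 and Aldoa each had 2 identifiers and were left out. Shares of cells were also taken after thinning to 2000 UMIs. The scripts were tested on simulated data. Alternatives changed the depth, mitochondrial, gate, doublet and UMI limits and the scaling, and 4 were added after the data were seen, those that left out cells with signs of another type, cells rich in Slc8a1 and Calb1, cells under 10% mitochondrial UMIs, and cells that met the TAL gate limits. Some genes that the rule would name are not reported here.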

Additional observations from a re-analysis of the deposited data

How the results depend on the processing

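The control share of members was 0.642% without members under 10% mitochondrial UMIs, where the ischemia share was 0.465%. The numbers of genes at least 2-fold higher and lower, 255 each, were 393 and 416 when CPM were averaged over cells, 29 and 38 of 497 genes after thinning to 2000 UMIs, 527 and 531 of 8962 genes with a minimum of 20 UMIs, and 146 and 134 of 3645 genes with a minimum of 100 UMIs. The last 3 differ in the number of genes measured. Of 58 named genes past 2-fold, 57 had the same direction in each of the 15 alternatives that gave them a ratio. The named genes include gate genes and genes ranked by their ratio in these members. Many alternatives read subsets of the same members, so this count is not an independent check. The exception among the 58 was Fxyd4, at 1.12 without members rich in Slc8a1 and Calb1, and the cause was not tested. No paired analysis was possible because each condition had 1 library. Depth limits the 22 control and 4 ischemia members that had under 10% mitochondrial UMIs and fewer than 10000 UMIs.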
